A study of Mus musculus with 30 samples.

Results

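The 10 genes described here encode enzymes that make serine, move its carbon onto folate, or use the linked amino acid pools. They are *Phgdh*, *Psat1*, *Psph*, *Shmt1*, *Shmt2*, *Mthfd2*, *Mthfd1l*, *Aldh1l2*, *Asns* and *Cth*, taken by gene symbol from the 54532 genes of the count table. The rule itself uses no measured value, but the set was drawn up with earlier results of these data known. All 10 were found, and all 10 passed the filter on low counts in each of the 11 comparisons. RNA was sequenced from MEL cells, a mouse erythroleukemia line that makes hemoglobin when cultured with DMSO. WT MEL cells and MEL cells in which *Abcb10* was disrupted with CRISPR/Cas9 (Abcb10-null) were each sampled untreated at day 0 and after 2 and 5 days of differentiation in 1.5% DMSO. There were 5 libraries in each of the 6 groups and 30 in all. *Abcb10* encodes a transporter of the mitochondrial inner membrane. The Abcb10-null cells, labelled Abcb10 knockout, were a single clone of the WT line according to the study's text, and the effect of the genotype and that of the clone cannot be told apart here. The labels call the libraries of a group biological replicates without saying that they came from separate cultures, and p-values measure the spread between these libraries.

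Serine is made from a glycolytic intermediate in a short pathway, and serine hydroxymethyltransferase then splits it into glycine and a carbon unit carried by tetrahydrofolate. Carbon units are passed along by parallel enzymes in the cytosol and in mitochondria and are used to build purines, thymidylate and methionine, while asparagine synthetase and cystathionine gamma-lyase make asparagine and cysteine. Several of these genes are known targets of ATF4, the transcription factor of the integrated stress response, and developing red cells also need glycine for heme. The culture medium of the study held added nonessential amino acids.

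Library totals ranged from 9906783 to 20157768 counts. The transcript of the disrupted gene was lower in Abcb10-null than in WT cells at each day, by 0.68 on the log2 scale at day 0, 1.54 at day 2 and 2.54 at day 5, and at day 5 the 5 Abcb10-null libraries held 177 to 237 CPM of *Abcb10* against 1148 to 1263 CPM in WT. CPM is the read count scaled to a common library size after TMM normalization. The 7 erythroid markers found in the table were present in each group, with a summed level of 672 to 11351 CPM, and the summed levels of the myeloid, mast cell, lymphoid and fibroblast lists were at most 14.2, 6.76, 4.81 and 6.66 CPM. Some libraries stood apart in the genes described here. WT day 5 replicate 5 was the highest of its group for 10 of 10 genes, while 31.4% of all genes were highest in that library. Abcb10-null day 2 replicates 2 and 5 were the lowest pair of their group for 10 of 10 genes. Of all genes, 27.6% had their lowest level of the group in replicate 2 and 18.1% in replicate 5. The share of all genes with both as the lowest pair was not counted. In bulk RNA, fewer cells of a kind and less RNA per cell cannot be told apart.

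*Asns*, which encodes asparagine synthetase, is shown with its promoter because, of the 8 genes with a promoter window, only *Asns* had the searched motif. The motif was TGATGNAA, letters of the response element that ATF4 and its C/EBP partners bind, and it was searched on both strands of the 250 bases upstream of each RefSeq start. In *Asns* it lay 23 bases upstream of the RefSeq start, at chr6:7693214-7693243 for the stretch printed (GRCm38.p6, minus strand), with the motif in capitals. The gene annotation that gave the exon lengths begins *Asns* farther upstream, at 7693254, so by that annotation the stretch lies inside the gene.
Asns promoter: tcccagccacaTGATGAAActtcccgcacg
The motif was in 3.45% of 32851 promoter windows, and in 1 of the 9 windows that the RefSeq table holds for 8 of the genes. *Aldh1l2* and *Cth* had no entry. By the annotation that gave the exon lengths, the windows of *Psat1*, *Mthfd2* and *Shmt1* lie inside those genes, which are on the minus strand. The *Mthfd2* window reaches 83317854 where the gene begins at 83325908. The *Psat1* windows reach 15925309 and 15924872 where the gene begins at 15947337. For these genes the sequence upstream of the annotated gene was not searched. A match is a description of letters and not a binding site, and no match says only that these letters were not in the window. The genes lie on 6 chromosomes (GRCm38), with *Shmt2*, *Mthfd1l* and *Aldh1l2* on chromosome 10, *Phgdh* and *Cth* on chromosome 3, and *Asns* and *Mthfd2* on chromosome 6. Exons of *Aldh1l2* (14.1% of its exon length), *Psph* (10.4%), *Shmt1* (4.74%) and *Shmt2* (1.03%) overlap a gene on the opposite strand. The strand setting of the counting is not given in the sources used here, so these counts may include some reads of the overlapping genes.

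At day 5 each of the 10 transcripts was higher in Abcb10-null than in WT cells. The differences ran from 0.77 for *Shmt1* to 3.45 for *Aldh1l2* on the log2 scale, with a median of 2.03, against a median of -0.02 over all 12676 genes tested (edgeR quasi-likelihood test, Benjamini-Hochberg adjusted p under 0.05). At that day 19.8% of all genes tested were called higher. For 9 of the 10 genes each Abcb10-null library was above each WT library, a pattern found in 13.3% of all genes. The exact permutation p of each of these 9 was 0.00794, the smallest that 5 against 5 libraries can give. For *Shmt1*, whose groups overlapped, the exact permutation p was 0.056. At day 2, 9 of the 10 were called higher, where 14.9% of all genes were, with a median difference of 0.92. The groups of 2, *Psat1* and *Psph*, did not overlap, a pattern found in 8.02% of all genes. For the other genes called at day 2 the exact permutation p ran from 0.016 to 0.063, with *Shmt1* and *Shmt2* both at 0.063. No gene was called lower at day 2 or day 5, where 16.9% and 17.8% of all genes were. At day 0 the direction was the other way for 5 of the 10, which were called lower (16.2% of all genes were) and did not overlap (9.14% of all genes did not, in this direction), while 1, *Cth*, was called higher (19.7% of all genes were). The median at day 0 was -0.19.

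**Figure D1:**
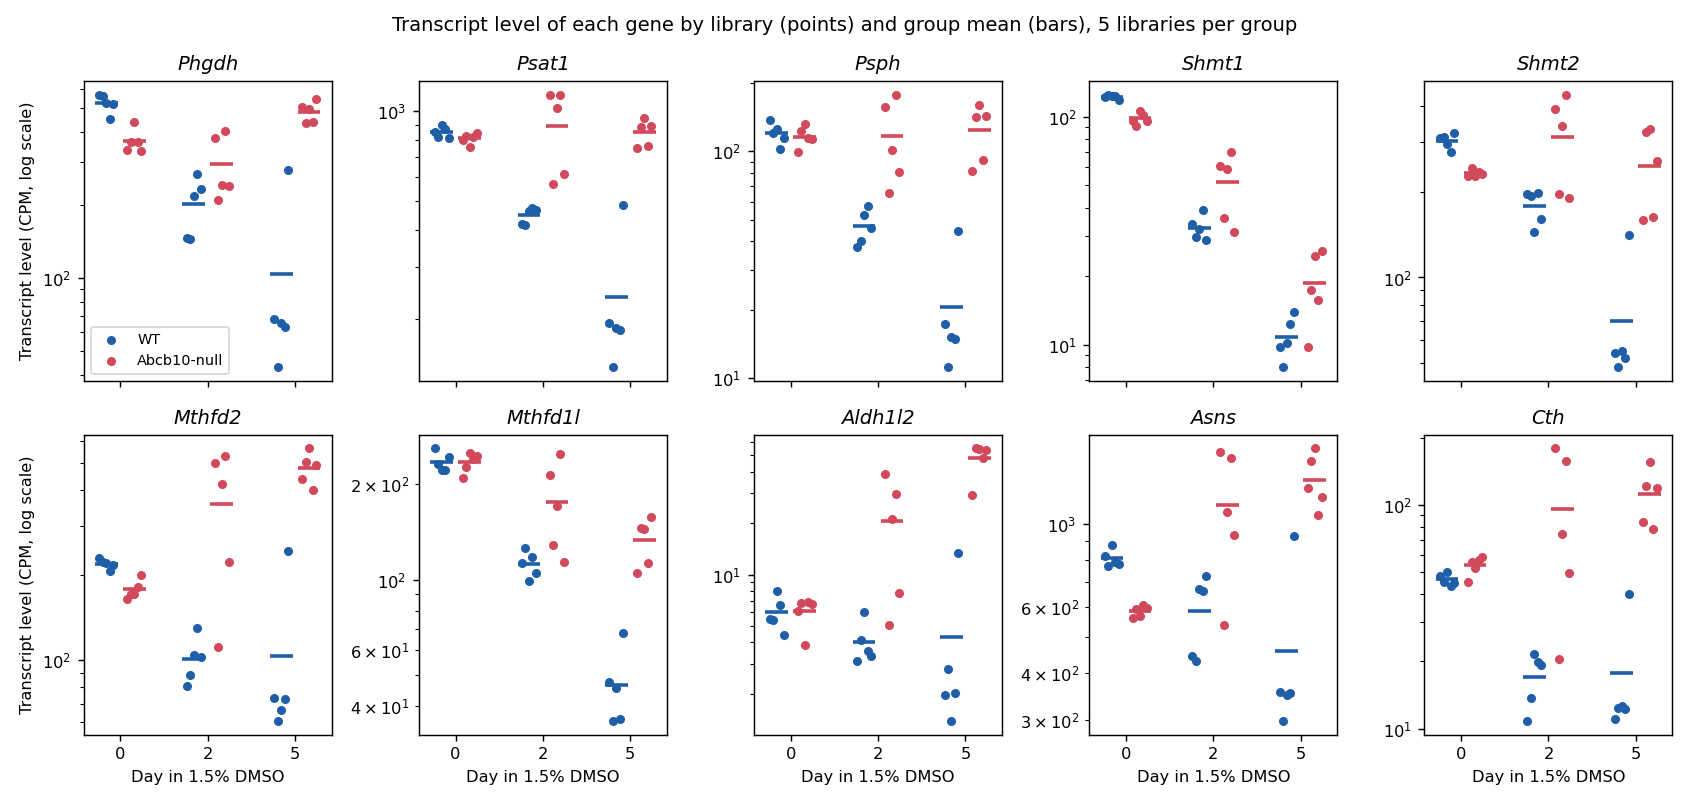
Transcript level of each gene in CPM (log axis) against day in 1.5% DMSO, with a point for each library, a bar for the mean of 5 libraries, WT in blue and Abcb10-null in red. By day 5 the WT points have dropped for most genes, while the Abcb10-null points lie wholly below their day 0 points for *Shmt1* and *Mthfd1l* and do not for the other 8, and the WT day 5 point above its group is replicate 5.

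**Figure D2:**
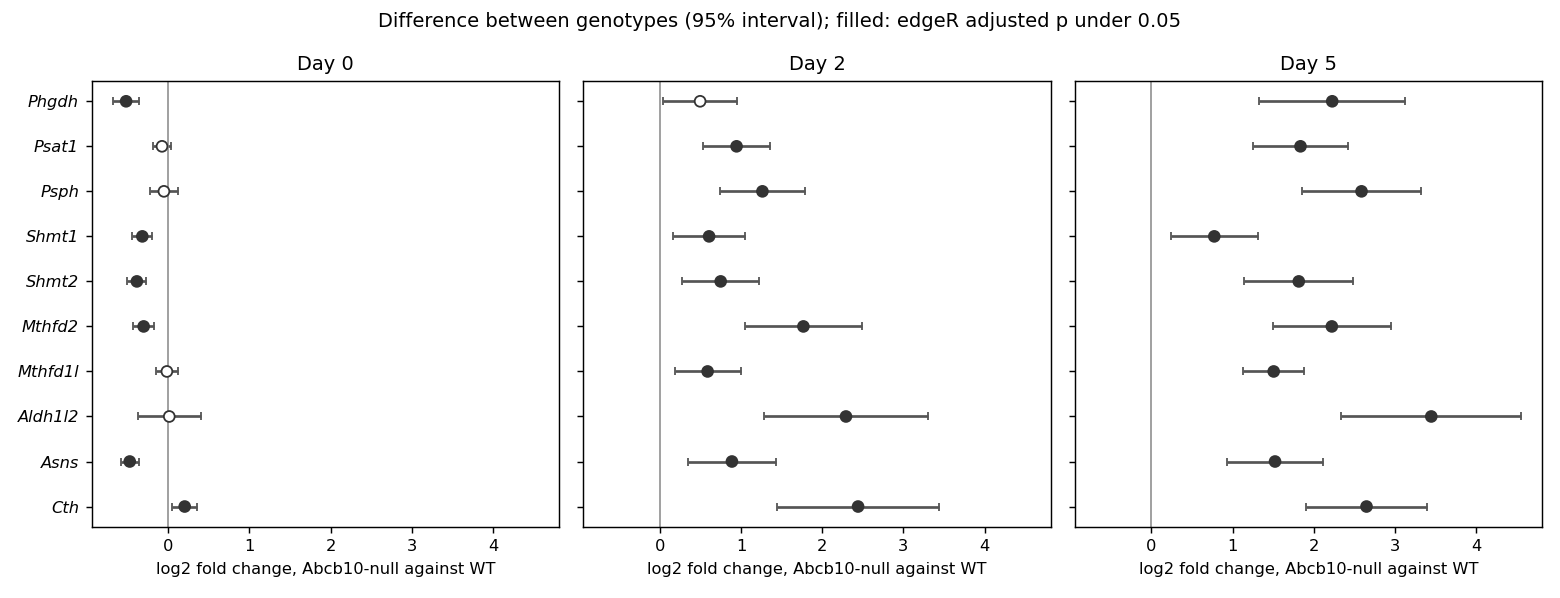
Log2 difference between Abcb10-null and WT cells for each gene at days 0, 2 and 5, with unadjusted 95% intervals and filled points where the edgeR adjusted p is under 0.05. On day 0 the points run from -0.52 to 0.20, with 5 genes called lower and 1, *Cth*, called higher. All points lie to the right of 0 on days 2 and 5.

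The serine synthesis enzymes act in the order Phgdh, Psat1 and Psph. *Phgdh*, phosphoglycerate dehydrogenase and the entry step of the pathway, was at 451 to 567 CPM in WT and 334 to 438 CPM in the Abcb10-null libraries at day 0, which gave a log2 difference of -0.52 ± 0.08 (SE, n = 5 per group, edgeR adjusted p = 4.2e-05). The groups did not overlap. At day 2 WT libraries 1 to 5 held 146, 145, 217, 267 and 232 CPM and Abcb10-null libraries held 376, 209, 241, 402 and 240 CPM. These groups overlapped, and the difference of 0.50 ± 0.21 (unadjusted 95% interval 0.04 to 0.95) did not pass the test (edgeR adjusted p = 0.090). At day 5 WT held 67.9, 42.9, 65.3, 62.8 and 279 CPM and Abcb10-null held 503, 433, 494, 439 and 543 CPM. All Abcb10-null libraries were above all WT libraries, with replicate 5 the WT library nearest to them. The difference was 2.23 ± 0.42 (edgeR adjusted p = 0.0012), and 3.00 without WT replicate 5.

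*Psat1*, phosphoserine aminotransferase, had day 0 levels that overlapped between genotypes, at 813 to 900 CPM in WT and 756 to 844 CPM in the Abcb10-null cells, with a 95% interval of the log2 difference from -0.19 to 0.03. At day 2 WT held 418, 416, 463, 474 and 464 CPM, and Abcb10-null held 1133, 567, 1024, 1126 and 612 CPM. At day 5 WT held 194, 138, 187, 185 and 484 CPM, and Abcb10-null held 751, 885, 948, 763 and 887 CPM. At both days the lowest Abcb10-null library was above the highest WT library, by 0.94 ± 0.19 between the groups at day 2 (edgeR adjusted p = 0.0050) and 1.84 ± 0.27 at day 5 (edgeR adjusted p = 0.00027). *Psph*, phosphoserine phosphatase, which releases serine, showed the same separation. At day 5 it stood at 17.2, 11.1, 15.1, 14.9 and 44.6 CPM in WT and 81.6, 142, 161, 91.3 and 143 CPM in the Abcb10-null cells. That is a 6.01-fold higher level (log2 2.59 ± 0.34, edgeR adjusted p = 0.00011), and the day 2 difference was 1.26 ± 0.24, with 37.8 to 57.5 CPM in WT and 65.6 to 178 CPM in the Abcb10-null libraries. Its day 0 difference of -0.05 did not pass the test (95% interval -0.23 to 0.12).

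Serine hydroxymethyltransferase has a cytosolic form, encoded by *Shmt1*, and a mitochondrial form, encoded by *Shmt2*. Both were lower in Abcb10-null cells at day 0, without overlap, by -0.32 ± 0.06 for *Shmt1* (118 to 125 CPM for WT, 91.2 to 106 CPM for Abcb10-null) and -0.39 ± 0.06 for *Shmt2* (277 to 322 and 227 to 243 CPM). At day 2 *Shmt1* was at 28.8 to 39.1 CPM in WT and 31.3 to 70.3 CPM in the Abcb10-null libraries (0.61 ± 0.20, edgeR adjusted p = 0.038), and *Shmt2* at 144 to 198 CPM and 191 to 440 CPM (0.75 ± 0.22, edgeR adjusted p = 0.022), with overlap in both. *Shmt1* at day 5 was at 9.82, 7.96, 10.2, 12.4 and 14 CPM in WT and 9.78, 17.4, 24.6, 15.7 and 25.8 CPM in the Abcb10-null cells. It was the only gene of the 10 whose day 5 groups overlapped, since Abcb10-null replicate 1 lay within the WT range. The difference of 0.77 ± 0.25 passed the test (edgeR adjusted p = 0.026), but not without WT replicate 1, 2 or 3 or without Abcb10-null replicate 3 or 5, where the highest adjusted p was 0.080. *Shmt2* at day 5 was at 54.1, 48.2, 54.9, 52 and 141 CPM in WT and 159, 324, 332, 163 and 256 CPM in the Abcb10-null cells. These groups did not overlap, and the difference was 1.82 ± 0.31 (edgeR adjusted p = 0.00072).

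Per kilobase of exon, which allows the 2 forms to be compared, the *Shmt2* to *Shmt1* ratio averaged 3.10 ± 0.21 (SD, n = 5) over the WT libraries of day 0 and 2.97 ± 0.24 over the Abcb10-null libraries. It was 6.87 ± 0.97 and 7.49 ± 0.47 at day 2, and 7.80 ± 2.80 and 17.1 ± 4.66 at day 5. At day 5 the Abcb10-null libraries ran from 12.4 to 23.2 and the WT libraries from 5.24 to 12.6, so the ranges met only at their ends. This ratio was chosen after its values were seen and was not tested.

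**Figure D3:**
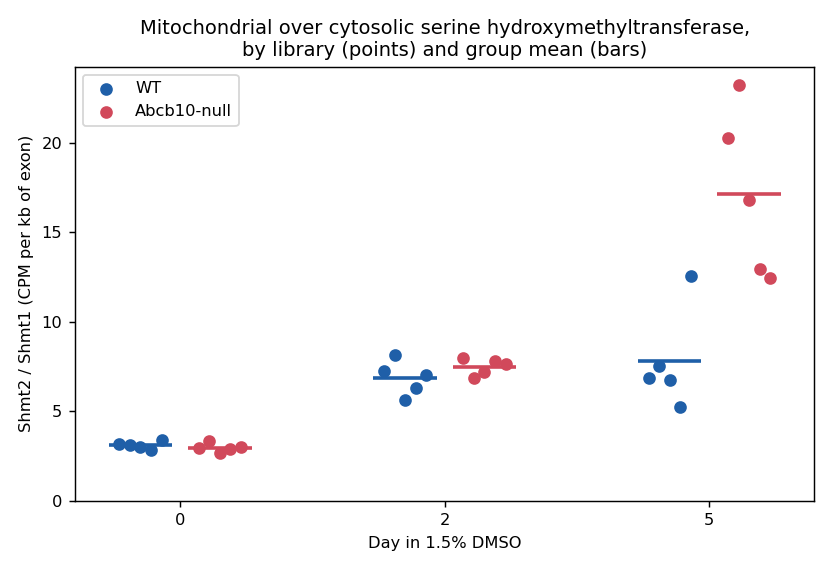
Ratio of *Shmt2* to *Shmt1* in CPM per kilobase of exon for each library (points) and the mean of 5 libraries (bars), by day in 1.5% DMSO, WT in blue and Abcb10-null in red. The genotypes lie together at days 0 and 2, and at day 5 the Abcb10-null mean is 17.1 against 7.80 in WT.

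*Mthfd2*, *Mthfd1l* and *Aldh1l2* encode enzymes of the mitochondrial folate branch. *Mthfd2*, a dehydrogenase and cyclohydrolase, was lower in Abcb10-null cells at day 0 by -0.30 ± 0.06 (edgeR adjusted p = 0.00067), with 207 to 230 CPM in WT and 165 to 201 CPM in the Abcb10-null libraries. At day 2 WT held 80.8, 88.2, 104, 130 and 102 CPM, and Abcb10-null held 501, 111, 421, 528 and 222 CPM. Only Abcb10-null replicate 2 lay within the WT range. At day 5 WT held 73.3, 60.6, 66.2, 72.8 and 243 CPM, and Abcb10-null held 438, 506, 564, 400 and 493 CPM, with no overlap. The differences were 1.77 ± 0.33 at day 2 (edgeR adjusted p = 0.0040) and 2.22 ± 0.34 at day 5 (edgeR adjusted p = 0.00032), and the latter was 2.80 without WT replicate 5.

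*Mthfd1l*, the mitochondrial formyltetrahydrofolate synthetase that releases formate, did not pass the test at day 0 (-0.02, 95% interval -0.15 to 0.12). At day 5 it was at 47.6, 35.9, 45.8, 36.4 and 67.9 CPM in WT and 105, 145, 144, 113 and 158 CPM in the Abcb10-null cells. The groups did not overlap, and the difference of 1.51 ± 0.17 had the smallest SE of the 10 genes at that day. At day 2 the difference was 0.59 ± 0.19, with overlap (99.0 to 126 CPM and 114 to 249 CPM), and this call was lost in 6 of 10 fits, each without 1 library.

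*Aldh1l2*, a mitochondrial formyltetrahydrofolate dehydrogenase, was the least abundant of the genes in WT cells, with 15 to 209 reads per library at day 5. It did not pass the test at day 0 (0.01, 95% interval -0.37 to 0.40). At day 2 it was at 3.13, 4.13, 6.06, 3.54 and 3.32 CPM in WT and 39.1, 5.09, 21.3, 29.7 and 7.82 CPM in the Abcb10-null cells. Abcb10-null replicate 2 again lay within the WT range. At day 5 it was at 1.96, 2.81, 1.38, 2.02 and 13.4 CPM in WT and 29.3, 55.0, 54.4, 48.1 and 53.6 CPM in the Abcb10-null cells. The day 5 difference of 3.45 ± 0.51, a 10.9-fold higher level, was the largest of the 10 genes (edgeR adjusted p = 0.00027), and it was 4.52 without WT replicate 5.

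*Asns*, whose promoter is printed above, makes asparagine from aspartate and was the most abundant of the genes per kilobase by mean level in each of the 6 groups, with libraries that overlapped those of the next gene in WT day 5 and Abcb10-null day 2 cells. Exon length was that of all annotated exons of a gene merged. By CPM alone *Psat1* had the higher mean at day 0, at 849 against 809 CPM in WT and 808 against 585 CPM in Abcb10-null cells. At day 0 *Asns* was at 771 to 878 CPM in WT and 560 to 608 CPM in the Abcb10-null cells. The difference of -0.48 ± 0.05 had the lowest p of the 10 genes at that day (edgeR adjusted p = 1.5e-06). At day 2 WT held 443, 431, 668, 662 and 724 CPM, and Abcb10-null held 1558, 537, 1079, 1501 and 936 CPM. Again replicate 2 was the only Abcb10-null library within the WT range. At day 5 WT held 355, 297, 348, 354 and 929 CPM, and Abcb10-null held 1246, 1473, 1592, 1059 and 1183 CPM. The differences were 0.89 ± 0.25 at day 2 (edgeR adjusted p = 0.018) and 1.52 ± 0.27 at day 5 (edgeR adjusted p = 0.00094).

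*Cth*, cystathionine gamma-lyase and the last step of the route from methionine to cysteine, differed from the other genes at day 0, where it was the only gene called higher. It was at 43.4 to 50.3 CPM in WT and 45.2 to 58.4 CPM in the Abcb10-null cells, a difference of 0.20 ± 0.07 (edgeR adjusted p = 0.042) that was no longer called in 7 of 10 fits, each without 1 library, where its highest adjusted p was 0.10. At day 2 it was at 10.8, 13.7, 21.6, 19.8 and 19.2 CPM in WT and 179, 20.4, 73.9, 157 and 49.8 CPM in the Abcb10-null cells. At day 5 it was at 11, 12.4, 12.6, 12.3 and 40.1 CPM in WT and 83.7, 122, 155, 78.3 and 119 CPM in the Abcb10-null cells. The groups overlapped at day 2 through Abcb10-null replicate 2, and did not at day 5. The differences were 2.44 ± 0.46 and 2.65 ± 0.35 (edgeR adjusted p = 0.0040 and 0.00011), the largest of the 10 genes at day 2.

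The 5 lower calls at day 0 (*Phgdh*, *Shmt1*, *Shmt2*, *Mthfd2* and *Asns*) had small differences, from -0.30 to -0.52. They were kept in each of the 10 fits without 1 library but were lost when all 30 libraries shared 1 estimate of the spread, where the adjusted p ran from 0.23 to 0.60. At day 2 the count of 9 genes was 5 without Abcb10-null replicate 1 or 4, and 10 without Abcb10-null replicate 2. *Shmt1* lost its day 2 call in 7 of those 10 fits and *Shmt2* and *Asns* each in 2.

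The genes fell during differentiation in WT cells. From day 0 to day 2, 10 of 10 were called lower and 0 higher (30.7% and 31.5% of all genes were), with a median of -1.10, and 9 of the 10 did not overlap (24.8% of all genes did not, in this direction). *Shmt1* fell most, by 1.90 on the log2 scale, and *Asns* least, by 0.46. The call of *Aldh1l2* (-0.58 ± 0.23, edgeR adjusted p = 0.043) was lost in 8 of 10 fits, each without 1 library (adjusted p up to 0.12), and with the filter of at least 10 counts per library (0.051). With all 30 libraries in 1 fit both *Aldh1l2* (0.30) and *Asns* (0.10) lost their calls. From day 2 to day 5, 5 of 10 were called lower and 0 higher (16.4% and 17% of all genes were), namely *Shmt1* (-1.58), *Shmt2* (-1.34), *Mthfd1l* (-1.26), *Psph* (-1.18) and *Psat1* (-0.91). The first 3 of these did not overlap (10.8% of all genes did not, in this direction), and *Psat1* lost its call without WT day 5 replicate 1, 3 or 4. Without WT day 5 replicate 5, 9 of 10 were called lower, with *Phgdh* at -1.73, *Aldh1l2* at -0.96, *Asns* at -0.77 and *Mthfd2* at -0.54 added. With all 5 libraries *Phgdh* was at -0.96 (edgeR adjusted p = 0.11) and stayed uncalled in 4 of 7 other settings. It was called lower with all genes of at least 1 count (edgeR adjusted p = 4.4e-08) and with all 30 libraries in 1 fit (0.013). With replicate number as a block it was called lower at -1.29 (edgeR adjusted p = 0.0046). From day 0 to day 5, 9 of 10 were called lower and 0 higher (34.7% and 36.5% of all genes were), with a median of -1.98 over the 10 and *Shmt1* 11.2-fold lower. For 7 of them the groups did not overlap (28.7% of all genes did not, in this direction). *Aldh1l2*, at -0.46 ± 0.52, was the exception, and without replicate 5 it too was called, at -1.54. These comparisons use the same WT libraries as the comparisons between genotypes.

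Abcb10-null cells followed another course. Their counts of called genes from day 0 to day 2 and from day 2 to day 5 were near the shares of all genes. The counts over the whole course were also not far from those shares for a set of 10 genes. From day 0 to day 2, *Aldh1l2* (1.78 ± 0.44), *Mthfd2* (1.02 ± 0.31) and *Asns* (0.96 ± 0.22) rose (3 of 10 genes, against 23.1% of all genes called higher). The groups of these 3 overlapped, with an exact permutation p of 0.087, 0.13 and 0.048. For *Mthfd2* and *Asns*, 1 day 2 library lay below each day 0 library. *Shmt1* fell by 0.91 on the log2 scale (1 of 10, against 20.1%) without overlap (17.3% of all genes did not overlap in this direction). *Cth*, at 0.86 ± 0.42, did not pass the test but did without Abcb10-null day 2 replicate 2, at 1.13. From day 2 to day 5, *Aldh1l2* (1.23 ± 0.42) and *Phgdh* (0.72 ± 0.18) rose (14.4% of all genes were called higher), and *Shmt1* fell by 1.46 (16.6% were called lower). The *Aldh1l2* call was lost in 6 of 10 fits, each without 1 library (edgeR adjusted p up to 0.075), and with DESeq2 (adjusted p = 0.074), and the *Phgdh* call was lost with all 30 libraries in 1 fit (edgeR adjusted p = 0.063). The groups of *Phgdh* and of *Shmt1* did not overlap, as in 10.7% of all genes upward and 11.4% downward. Over the whole course, 5 of 10 rose (33.9% of all genes did), namely *Aldh1l2* (2.99 ± 0.19), *Mthfd2* (1.44 ± 0.10), *Asns* (1.18 ± 0.10), *Cth* (1.07 ± 0.15) and *Phgdh* (0.41 ± 0.09), the last of which lost its call with all 30 libraries in 1 fit (edgeR adjusted p = 0.26). *Shmt1* and *Mthfd1l* fell, by 2.38 and 0.80 (33.3% of all genes were called lower). Apart from *Phgdh*, the genes that rose (4, against 26.4% of all genes) and those that fell (2, against 27.7%) did so without overlap. *Psat1*, *Psph* and *Shmt2* did not pass the test, and their unadjusted 95% intervals for the change from day 0 to day 5 were -0.10 to 0.25, -0.23 to 0.44 and -0.28 to 0.47.

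The change from day 0 differed between genotypes for 10 of 10 genes, toward higher levels in Abcb10-null cells, both to day 2 (12% of all genes were called in this direction and 10.8% in the other) and to day 5 (16.8% and 14.7%). The test was the interaction of genotype and day in edgeR. For the change to day 5 the difference, Abcb10-null minus WT, ran from 1.11 ± 0.25 for *Shmt1* to 3.44 ± 0.56 for *Aldh1l2*, with a median of 2.34. For *Shmt1*, which fell in both genotypes, the positive difference means a smaller fall in Abcb10-null cells. For the change to day 2 the lowest was *Mthfd1l*, at 0.66 ± 0.21 (edgeR adjusted p = 0.026), and this call was lost in 9 of 20 fits, each without 1 library, with an adjusted p of at most 0.085. *Phgdh*, at 1.06 ± 0.25, lost its call to day 2 with all 30 libraries in 1 fit (edgeR adjusted p = 0.080).

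**Figure D4:**
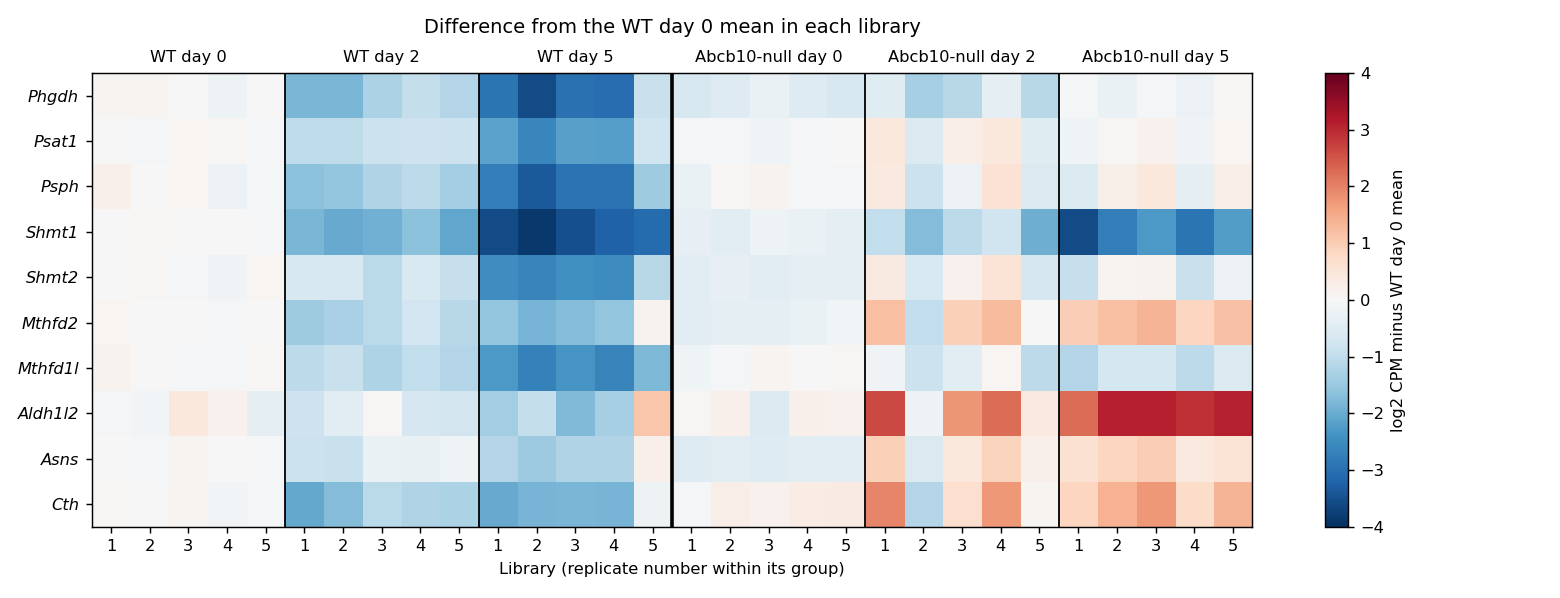
Log2 CPM of each gene (rows) in each of the 30 libraries (columns, numbered by replicate within their group) minus the mean of the WT day 0 libraries, from blue (lower) to red (higher). The WT day 5 columns are the bluest apart from replicate 5, *Aldh1l2* is reddest in the Abcb10-null day 5 columns, and Abcb10-null day 2 replicates 2 and 5 are paler or bluer than the other 3 libraries of their group.

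The genes also varied together within groups. After each group's mean was removed, the correlation between genes over the 30 libraries was positive for 45 of 45 pairs, with a median Pearson r of 0.805, from 0.472 for *Phgdh* and *Shmt1* to 0.937 for *Mthfd2* and *Cth*. Over the 10 libraries of day 0 alone the median was 0.291, with 29 of 45 pairs positive, against 0.837 at day 2 and 0.864 at day 5. The points share their library, its depth and its scaling, and the values are given as a description. Correlations over pairs of all genes were not computed, so these values cannot set the 10 genes apart from others. In WT day 5 replicate 5 the genes lay on average 1.23 above their group mean on the log2 scale, and in Abcb10-null day 2 libraries 1 to 5 they lay 0.62, -0.90, 0.13, 0.65 and -0.51 from theirs.

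*Atf4* and other transcripts of the stress response moved with these libraries. In WT day 5 libraries 1 to 5 *Atf4* was at 188, 135, 166, 181 and 415 CPM, and *Trib3*, a pseudokinase gene induced by ATF4, was at 25.5, 18, 26.2, 31.4 and 429 CPM. In Abcb10-null day 2 libraries *Atf4* was at 580, 193, 610, 643 and 390 CPM, and *Ddit3*, a transcription factor gene of the same response, was at 503, 29.3, 496, 514 and 219 CPM. So replicate 5 was highest in the first group and replicates 2 and 5 were lowest in the second, as for the 10 genes. Erythroid transcripts differed in the same libraries. *Slc4a1*, the red cell anion exchanger gene, was at 253 CPM in WT day 5 replicate 5 against 498 to 651 CPM in the other 4, and *Alas2*, which encodes the erythroid enzyme at the start of heme synthesis, was at 44.9 and 122 CPM in Abcb10-null day 2 replicates 2 and 5 against 174 to 234 CPM in the other 3 (*Alas2* was chosen after its values were seen). What part these differences had in the values of the 10 genes was not tested.

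**Figure D5:**
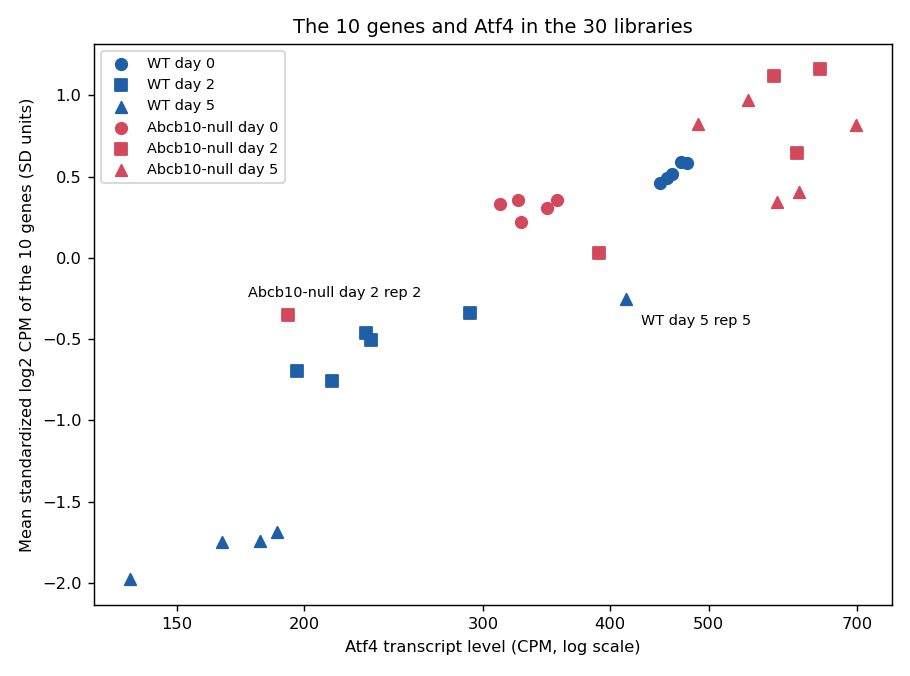
Mean of the standardized log2 CPM of the 10 genes (SD units, each gene scaled over 30 libraries) against *Atf4* in CPM (log axis), a point per library, with WT in blue, Abcb10-null in red, and a marker for each day. The 4 lowest points are WT day 5 libraries with *Atf4* at 135 to 188 CPM, while WT day 5 replicate 5 has 415 CPM and lies above them.

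Over the 30 libraries, *Atf4* had a Pearson r of 0.907 with the mean standardized level of the 10 genes and stood at place 77 among the other genes. *Atf4* was lower in Abcb10-null cells at day 0, by 0.48 on the log2 scale, and higher by 1.00 at day 2 and 1.43 at day 5. *Ddit3* followed the same signs, with -0.38, 2.75 and 1.77. The 8 genes with the pattern most like that of the 10 were *Lars* (leucyl-tRNA synthetase, r = 0.988), *Nars* (asparaginyl-tRNA synthetase, 0.981), *Gars* (glycyl-tRNA synthetase, 0.972), *Eif4ebp1* (a translation repressor, 0.970), *Xpot* (the tRNA exporter, 0.966), *Hspa9* (a mitochondrial chaperone, 0.964), *Ndufa10* (a complex I subunit, 0.963) and *Wars* (tryptophanyl-tRNA synthetase, 0.960). Each of the 10 genes entered the mean it was compared with, and their own r ran from 0.615 for *Shmt1* to 0.986 for *Psat1*. The libraries are 6 groups of 5, so these values mainly compare group means, and they carry no p.

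Lists of neighbouring genes were counted in the same fits for Abcb10-null against WT, where the shares of all genes called higher and lower were 19.7% and 16.2% at day 0, 14.9% and 16.9% at day 2, and 19.8% and 17.8% at day 5. Among other folate and one-carbon genes, 4 of 16 tested were higher and 0 lower at day 5, with a median of 0.22, against 3 higher and 1 lower of 17 at day 2 and 2 higher and 3 lower of 16 at day 0. The counts called higher at days 2 and 5 were near the share of all genes. *Fpgs*, which adds glutamates to folate, differed most (1.53 ± 0.20, with 9.76 ± 3.00 CPM in WT and 28.2 ± 4.29 CPM in the Abcb10-null libraries, SD), followed by the mitochondrial folate carrier *Slc25a32* (0.79 ± 0.11). *Mthfd1*, the cytosolic enzyme with the activities that *Mthfd2* and *Mthfd1l* have in mitochondria, did not pass the test at day 5 (-0.06, 95% interval -0.50 to 0.39), and it was named after its values were seen. Of the methionine cycle and transsulfuration genes, 0 of 9 were called at day 5, and 1 was higher and 1 lower at each of days 0 (9 tested) and 2 (10 tested).

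Genes of serine, glycine, aspartate and asparagine supply and use were higher in 8 of 14 tested and lower in 1 at day 5, with a median of 0.60. At day 2 the counts were 4 higher and 0 lower of 12, and at day 0 they were 2 and 4 of 12. *Slc1a4*, a carrier of neutral amino acids that include serine, was 2.05 ± 0.35 higher at day 5, and *Got1*, the cytosolic aspartate aminotransferase, was 1.86 ± 0.37 higher. *Slc25a38*, the mitochondrial glycine carrier that serves heme synthesis, was -0.74 ± 0.21 and the only gene of the list called lower. In the list of ATF4 pathway regulators, 12 of 18 were higher and 4 lower at day 5, 8 and 2 at day 2, and 1 and 8 at day 0. The largest day 5 differences there were in *Chac1* (4.27 ± 0.66), a glutathione-degrading enzyme gene, and *Trib3* (3.07 ± 0.79). *Eif2ak1*, the heme-regulated eIF2 alpha kinase, was -1.02 ± 0.30 and *Nfe2l2*, the oxidative stress factor NRF2, was -0.71 ± 0.12. The erythroid maturity markers went the other way, with 11 of 11 lower at day 5 (median -1.49), 9 of 11 at day 2 and 5 of 10 at day 0, where 1 was higher. *Slc4a1* (-3.13 ± 0.40) and the transferrin receptor gene *Tfrc* (-3.09 ± 0.33) had the largest differences.

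Per kilobase of exon, the order of the genes changed with group. In WT day 0 cells *Asns* was highest at 295.8 ± 15.7 CPM per kb (SD), followed by *Phgdh* at 210.4 and *Psat1* at 199.6, which overlapped, and *Aldh1l2* was lowest at 0.800. *Shmt2*, *Mthfd2* and *Mthfd1l* lay between, at 97.5, 62.9 and 53.1 CPM per kb, each without overlap with the next. In Abcb10-null day 5 cells *Asns* was at 479 ± 79.5 and *Psat1* and *Phgdh* overlapped at 199 and 194. *Mthfd2*, at 138, lay above *Shmt2*, at 79.3, the reverse of their order at day 0, and in WT day 5 cells the order of the means was also reversed, at 29.6 and 22.5 with overlapping libraries. In Abcb10-null day 5 cells *Shmt1* was lowest, at 4.80, and overlapped *Aldh1l2* at 6.41.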

How the data were processed

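RNA of 30 libraries was depleted of ribosomal and globin RNA, made into stranded libraries, sequenced, aligned to GRCm38 with STAR 2.6.1b and counted over Ensembl genes with featureCounts 1.6.3 by the authors. The deposited values are raw read counts per gene, not normalized. Groups and replicate numbers came from the sample labels. The genes and lists were chosen with earlier results of these data known. The test was edgeR 4.0.16 in R 4.3.3 (TMM, filterByExpr, glmQLFit, glmQLFTest), fitted to the libraries of the groups compared. P-values were adjusted by Benjamini-Hochberg across the whole table past the filter, and called under 0.05. SE is the log2 fold change divided by the root of F, and 95% intervals are unadjusted. CPM was set on TMM library sizes over 30 libraries, and log2 levels added 0.5. Named genes were the 10, *Atf4*, *Ddit3*, *Abcb10*, the 8 most similar genes, and up to 2 rises and 2 falls per list at day 5, with *Alas2* and *Mthfd1* added after their values were seen. Alternatives included DESeq2 1.42.0. Scripts were tested on simulated data. Replicates differed by more than counting error (chi-square per degree of freedom at least 6.23).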

Additional observations from a re-analysis of the deposited data

Results flagged for a closer look

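Of 60 groups of 5 libraries (10 genes in 6 groups), 9 held a library far from the other 4 on the log2 scale, by Dixon's test. Chance flags about 1 in 20 groups that are independent. The 10 genes share the same libraries and varied together, so the 60 groups are not independent. WT day 5 replicate 5 was the flagged library for 7 genes, with *Phgdh* at 279 CPM, *Psat1* at 484, *Shmt2* at 141, *Mthfd2* at 243, *Aldh1l2* at 13.4, *Asns* at 929 and *Cth* at 40.1 CPM, each the highest of its group. *Aldh1l2* was also far below its group in Abcb10-null day 0 replicate 3 (3.84 CPM) and in Abcb10-null day 5 replicate 1 (29.3 CPM).

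The change from day 0 differed between genotypes for each of the 10 genes by the interaction test in edgeR (adjusted p under 0.05). To day 2 the differences in log2 fold change, Abcb10-null minus WT, were 1.06 for *Phgdh*, 1.07 for *Psat1*, 1.36 for *Psph*, 0.98 for *Shmt1*, 1.19 for *Shmt2*, 2.12 for *Mthfd2*, 0.66 for *Mthfd1l*, 2.33 for *Aldh1l2*, 1.41 for *Asns* and 2.29 for *Cth*. To day 5 they were 2.76 for *Phgdh*, 1.93 for *Psat1*, 2.65 for *Psph*, 1.11 for *Shmt1*, 2.22 for *Shmt2*, 2.54 for *Mthfd2*, 1.54 for *Mthfd1l*, 3.44 for *Aldh1l2*, 2.01 for *Asns* and 2.46 for *Cth*. Both sets of differences use the same day 0 libraries.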

How the results depend on the processing

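The precision of each value is limited by 5 libraries a group, and for *Aldh1l2* in WT cells also by depth. Of 767 log2 fold changes of the 10 genes under 7 other settings, 734 kept their direction and side of the threshold, 17 lost and 9 gained a call, and 7 turned in sign. With 1 library left out, 1209 of 1300 kept both, 55 lost and 9 gained a call without turning in sign, and 27 turned in sign. Among those that turned, *Mthfd2* (-0.54) and *Aldh1l2* (-0.96) from day 2 to day 5 in WT cells also gained a call, without WT day 5 replicate 5. Each value that turned in sign was not called in the comparison as reported. The cause of these changes was not tested.

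At day 0, the count of the 10 genes called higher was 0 in place of 1 with DESeq2, with DESeq2 size factors in edgeR, with all genes of at least 1 count, with all 30 libraries in 1 fit, with the replicate block, and with a limit of 0.58 on the log2 fold change as well. The count called lower, 5, was 0 with all 30 libraries in 1 fit and with that limit. *Aldh1l2* at day 0 turned to -0.0045 with DESeq2 size factors. From day 0 to day 2 in Abcb10-null cells, 5 were higher and 2 lower (in place of 3 and 1) with all genes of at least 1 count, and 2 were lower with all 30 libraries in 1 fit. From day 2 to day 5 in Abcb10-null cells, 1 was higher (in place of 2) with DESeq2 or all 30 libraries in 1 fit, and 2 were lower (in place of 1) with all genes of at least 1 count. *Psat1* from day 0 to day 5 in Abcb10-null cells turned to -0.012 with all genes of at least 1 count, and *Mthfd2* from day 2 to day 5 in WT cells turned to -0.017 with the filter of at least 10 counts per library. The labels do not say whether same-numbered libraries were paired, and the main fits treated them as unpaired. Of 75 pairs of same-numbered libraries, 10 had deviations from their group means that correlated over 0.1 (median -0.027, highest 0.496). Such correlations cannot show whether the libraries were paired. With the replicate block, *Mthfd2*, *Aldh1l2* and *Cth* from day 2 to day 5 in WT cells were -0.19, -0.40 and -0.093, and *Psph* from day 0 to day 2 in Abcb10-null cells was -0.068.

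For the lists at day 0, DESeq2 and its size factors called 6 and 5 other folate genes lower (in place of 3). At least 10 counts per library gave 1 other folate gene higher (in place of 2) and 2 ATF4 regulators higher (in place of 1). With all 30 libraries in 1 fit, 1 other folate gene was higher and 1 lower, 0 methionine genes were lower (in place of 1), 1 supply gene was higher and 0 lower (in place of 2 and 4), 0 purine genes were lower (in place of 3), 1 ATF4 regulator was lower (in place of 8) and 0 erythroid markers were higher (in place of 1). At day 2 that fit called 8 other folate genes (in place of 3) and 7 supply genes (in place of 4) higher. The methionine count called lower at day 2, 1, was 0 with DESeq2, with all genes of at least 1 count, without globin, mitochondria-encoded and small RNA genes, and with the replicate block. The purine count called lower at day 2, 0, was 1 with DESeq2, all 30 libraries in 1 fit or the replicate block and 2 with all genes of at least 1 count. The ATF4 regulators called lower at day 2, 2, were 1 with all genes of at least 1 count, without those gene classes or with the replicate block. At day 5 the methionine count called lower, 0, was 1 with DESeq2, its size factors, at least 10 counts per library or all 30 libraries in 1 fit, and this last fit also called 1 higher.

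With 1 library left out, the counts of the 10 genes ran from 0 to 1 higher at day 0, from 5 to 10 higher at day 2, from 4 to 9 lower from day 2 to day 5 in WT cells, from 3 to 5 higher and 1 to 2 lower from day 0 to day 2 in Abcb10-null cells, and from 1 to 2 higher and 1 to 2 lower from day 2 to day 5 in Abcb10-null cells. At day 0 *Mthfd1l* ran from -0.057 to 0.018 and *Aldh1l2* from -0.093 to 0.14. From day 2 to day 5 in WT cells *Mthfd2* ran from -0.54 to 0.18, *Aldh1l2* from -0.96 to 0.33 and *Cth* from -0.48 to 0.19. In Abcb10-null cells *Psph* ran from -0.16 to 0.18 from day 0 to day 2, from -0.052 to 0.30 from day 2 to day 5, and from -0.010 to 0.22 from day 0 to day 5. From day 2 to day 5 *Psat1* ran from -0.19 to 0.029 and *Cth* from -0.037 to 0.57, and from day 0 to day 5 *Shmt2* ran from -0.034 to 0.22. At day 0 the lists ran from 1 to 2 methionine genes higher and 1 to 3 lower, 0 to 1 purine genes higher, 1 to 2 ATF4 regulators higher and 0 to 1 erythroid markers higher. At day 2 they ran from 3 to 5 other folate genes higher and 0 to 2 lower, 0 to 1 methionine genes lower, 4 to 7 supply genes higher, 0 to 1 purine genes lower, 1 to 2 ATF4 regulators lower and 0 to 1 erythroid markers higher. At day 5 they ran from 0 to 1 methionine genes higher and 0 to 1 lower, and 3 to 7 purine genes higher.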

Other observations

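The genes of de novo purine synthesis, a route that uses the carbon units of folate, were counted over the course in both genotypes. From day 0 to day 5, 11 of 12 tested fell and 1 rose in WT cells (median log2 change -1.45), and 10 of 12 fell and 0 rose in Abcb10-null cells (median -0.97), where 34.7% and 33.3% of all genes were called lower. The change differed between genotypes by the interaction test in 7 genes toward higher and 1 toward lower levels in Abcb10-null cells, with a median difference of 0.53, where 16.8% and 14.7% of all genes were called in these directions. At day 5, 6 of 12 were higher and 1 lower in Abcb10-null than in WT cells, at day 2 the counts were 7 and 0, and at day 0 they were 0 and 3. Of all genes, 19.8% were called higher at day 5 and 14.9% at day 2, and 16.2% were called lower at day 0. *Atic*, which carries out the last steps to inosine monophosphate, was 1.09 ± 0.18 higher at day 5 (83.2 ± 25.3 CPM in the WT and 177.5 ± 26.7 CPM in the Abcb10-null libraries, SD, n = 5, edgeR adjusted p = 0.00050), and *Adss*, on the branch to AMP, was 0.73 ± 0.10 higher. *Adssl1*, which encodes another form of that enzyme, was -0.66 ± 0.13 and thus lower in Abcb10-null cells.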
